A study of Mus musculus with 5 samples.

Results

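The genes described here are the mouse zinc finger genes Zfp700 to Zfp999, that is, all protein-coding genes of GRCm38 (mm10) whose symbol is Zfp followed by a 3-digit number that starts with 7, 8 or 9, with or without a letter. There were 137 such genes among 21951 protein-coding genes. A peak of RNA polymerase II (Pol II) belonged to a gene when the midpoint of the peak lay in the gene or in the 3 kb upstream of it. It was called a promoter peak within 3 kb of one of the gene's own transcription start sites and a body peak elsewhere. At least 1 peak was found at 74 of the 137 genes, and 126 of the 56615 peaks in the series lay at these genes.

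Pol II was mapped by CUT&Tag, a method in which a transposase tethered to a chromatin-bound antibody inserts adapters into nearby DNA. Nuclei were taken from splenic regulatory T (Treg) cells, sorted as CD3+CD4+Foxp3-YFP+ cells from C57BL/6 mice aged 8 weeks, with both sexes pooled. All mice were injected with IL-2c, which combines 1 µg IL-2 with 5 µg of an antibody against IL-2 and makes Treg cells expand, for 3 days and were killed 48 hours later. Control mice (Ctrl) carried Foxp3Cre, which is active in cells that express Foxp3, and 1 floxed allele of Setd2 (Setd2 flox/+), and knockout mice (KO) carried Foxp3Cre with both alleles floxed (Setd2 flox/flox), so that the Treg cells of Ctrl mice also had Cre and 1 deleted allele. There were 2 Ctrl and 2 KO libraries of 80000 nuclei each, and cells of 2 mice were pooled for sorting. The methods count the nuclei of 1 library as a biological replicate but leave unsaid whether the libraries of a genotype came from separate pools of mice, so that the spread between them may be partly technical.

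Total counts in peaks were between 4489646 and 13351007 per library, and the library numbered 1 was the deeper in each genotype. All 7 Treg markers examined, Foxp3 among them, had a promoter peak, with summed normalized counts from 5086 to 5936 per library. Of 12 markers of B cells, CD8 T cells, NK cells, myeloid cells and erythroid cells, only the B cell gene Cd79a had one, at 68 to 121 normalized reads per library. Setd2 itself held 525, 513, 458 and 560 normalized reads in Ctrl 1, Ctrl 2, KO 1 and KO 2, and a floxed allele need not alter Pol II elsewhere in the gene, so that these reads did not check the genotype.

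Zfp genes encode C2H2 zinc finger proteins, in which each finger is held by a pair of cysteines and a pair of histidines around a zinc ion and contacts a few bases of DNA. Many of them carry a KRAB domain, which binds the co-repressor Trim28 and thereby brings the H3K9 methyltransferase Setdb1 to retroelements and other targets. The fingers of a protein are usually encoded by 1 long 3′ exon, and in this family these exons are known to carry H3K36me3, the mark that Setd2 places along transcribed genes, together with H3K9me3.

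Sequences from some of the genes compared below are shown 5′ to 3′ on the strand of the gene. Single fingers are given for 3 of the 5 members in which a body peak in the last exon touched finger-coding DNA. Reads in the whole peak were lower in KO at Zfp954 and not at the others. The lines were read from the GRCm38.p6 genome of RefSeq at chr7:127253856-127253918 (plus strand), chr17:32775303-32775365 (minus strand) and chr7:7115302-7115364 (minus strand), and the capitals mark the codons of the cysteines and histidines.
Zfp771: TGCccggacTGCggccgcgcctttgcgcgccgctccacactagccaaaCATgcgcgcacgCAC
Zfp871: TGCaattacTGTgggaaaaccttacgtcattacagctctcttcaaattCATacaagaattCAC
Zfp954: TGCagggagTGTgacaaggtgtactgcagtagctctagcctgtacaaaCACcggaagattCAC

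For the 3 members whose promoter reads were lowest in KO relative to Ctrl among those treated in detail, the 200 bases just upstream of the first annotated base of the gene were read from the same genome, at chr7:41633003-41633202 (plus strand), chr7:7121489-7121688 (minus strand) and chr7:27979172-27979371 (minus strand). The capitals mark the word CCAAT, the word GGGCGG and the word CCGGAAG, on either strand. Of these 200 bases, 200 in Zfp788, 85 in Zfp954 and 197 in Zfp780b lay under the promoter peak of the gene.
Zfp788: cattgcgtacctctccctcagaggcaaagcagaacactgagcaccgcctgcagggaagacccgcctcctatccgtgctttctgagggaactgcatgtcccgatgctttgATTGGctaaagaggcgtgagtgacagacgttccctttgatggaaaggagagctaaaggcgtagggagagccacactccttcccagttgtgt
Zfp954: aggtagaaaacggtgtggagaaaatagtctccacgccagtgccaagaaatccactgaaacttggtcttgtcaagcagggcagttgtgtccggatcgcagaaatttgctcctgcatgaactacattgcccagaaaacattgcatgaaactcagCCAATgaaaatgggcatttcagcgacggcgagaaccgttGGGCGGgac
Zfp780b: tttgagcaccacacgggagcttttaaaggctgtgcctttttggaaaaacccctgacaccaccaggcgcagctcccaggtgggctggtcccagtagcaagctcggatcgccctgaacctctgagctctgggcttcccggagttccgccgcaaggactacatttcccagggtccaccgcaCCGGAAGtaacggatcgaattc

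Where Pol II was found in the family was examined first. Peaks were present at 54.0% of the Zfp700 to Zfp999 genes, at 69.7% of the 254 Zfp1 to Zfp699 genes and at 54.2% of all protein-coding genes. Most members with a peak had peaks at the promoter alone. A promoter peak was found at 73 of the 74 genes and a body peak at 13 of them (17.6%), against 29.4% of the Zfp1 to Zfp699 genes with a peak and 42.9% of all genes with a peak. A single peak was the whole Pol II signal of 54 members, and at 53 of these it lay at the promoter. The remaining one was Zfp704, whose only peak lay in an intron.

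The genes without a peak were unevenly placed along the genome. All 6 members on chromosome 6 had a peak, as did 11 of 14 on chromosome 13, 15 of 23 on chromosome 17 and 15 of 25 on chromosome 7. By contrast, 0 of the 10 members in the distal cluster of chromosome 2 (chr2:175372436-178078476) and 1 of the 16 in the distal cluster of chromosome 4 (chr4:145510759-147848366), Zfp984, had one. The authors kept uniquely mapped reads only, and genes in these clusters have near-identical copies. Copies of at least 150 bp at 99% identity or more covered over 20% of the last exon in 7 of the 10 genes on chromosome 2 and in 5 of the 16 on chromosome 4. In the whole family, this was the case for 13 of the 63 genes without a peak and for 0 of the 74 with one, in which the covered share was at most 19.8%. No such copy of the last exon was found for 49 of the 63. The part of read mapping in these gaps was not tested, and the absence of a peak does not show the absence of Pol II.

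**Figure D1:**
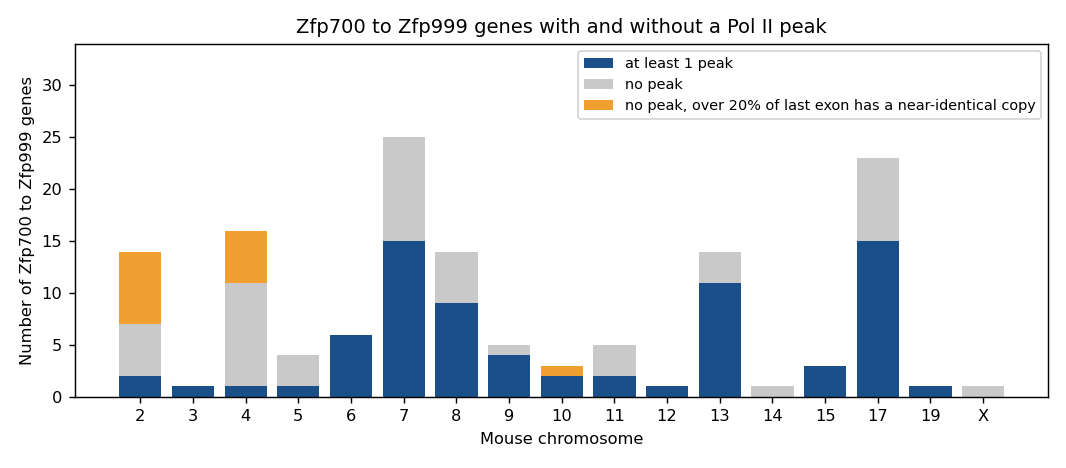
Number of Zfp700 to Zfp999 genes (y axis) on each mouse chromosome (x axis), stacked by whether the gene had at least 1 Pol II peak; orange marks genes without a peak in which over 20% of the last exon has a near-identical copy elsewhere. The bars of chromosomes 2 and 4 are mostly grey and orange, with 2 of 14 and 1 of 16 genes holding a peak, whereas that of chromosome 6 is filled, with 6 of 6.

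Protein sequence gave a second view of where Pol II was found. A stretch like the start of a KRAB domain was found in 89 of the 137 proteins, of which 42 had a peak, and it was not found in 48, of which 32 had one. The search used 1 fixed pattern, so that some proteins without a match may still carry a KRAB domain. Body peaks were found at 3 of the 42 genes with the stretch and at 10 of the 32 without it. The median number of fingers that matched the C2H2 pattern was 10 in genes with a peak and 11 in those without, and the highest was 30, in Zfp729b. Another member lay within 500 kb of 100 genes, of which 50 had a peak, and of the other 37 genes, 24 had one.

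Promoter sequences of RefSeq (GRCm38.p6), 300 bases around the start site, were held for 117 of the 137 genes, with 135 start sites. The word CCAAT, counted on both strands, was in 63.0% of these promoters, against 37.4% of all promoters and 38.9% of those of Zfp1 to Zfp699. CCGGAAG was in 17.8%, against 8.86% of all promoters and 23.3% of those of Zfp1 to Zfp699. TGACGT was in 14.8%, against 7.51% and 10.3% in the same order, and TATAAA in 5.19%, against 13.6% and 7.63%. GGGCGG was in 38.5%, against 35.7% and 46.2%. The upstream sequence of Zfp788 shown above had 1 CCAAT word, that of Zfp954 1 CCAAT and 1 GGGCGG, and that of Zfp780b 1 CCGGAAG. Members with a peak had a median of 11 CpG per promoter and those without a peak 7.5. CCAAT was in 55.7% of the promoters of members with a peak and in 73.2% of those without. In the same order, CCGGAAG was in 13.9% and 23.2%, TGACGT in 22.8% and 3.57%, TATAAA in 7.59% and 1.79%, and GGGCGG in 45.6% and 28.6%. These words describe the sequence, and no factor was measured.

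The level of Pol II at the promoters was compared per kb of peak, since peaks differ in length. The members with the highest normalized promoter reads per kb, averaged over the 4 libraries, were Zfp963, Zfp959, Zfp788, Zfp983 and Zfp809. Zfp963 held 477, 643, 427 and 568 normalized reads per kb in Ctrl 1, Ctrl 2, KO 1 and KO 2, and its peak is shared with another gene. Zfp809, which silences retroviruses by binding their primer binding site, held 345, 356, 278 and 318 in the same order. The median over all members was 148 normalized reads per kb, against 163 for Zfp1 to Zfp699 and 154 for all genes. Member peaks were thus close to those of other genes in density, but there was less in them in all. The median promoter sum was 97.9 normalized reads, against 200 for Zfp1 to Zfp699 and 250 for all genes, and the median SE of the log2 fold change was accordingly larger, at 0.35 against 0.25 for all genes.

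**Figure D2:**
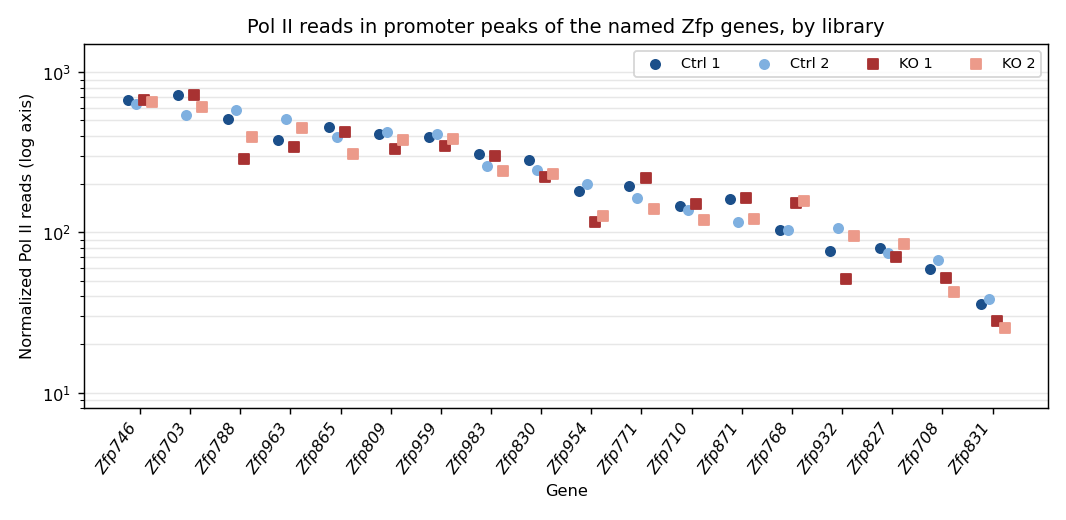
Normalized Pol II reads in the promoter peaks (y axis, log scale) of the 18 named members with a promoter peak (x axis, ordered by the Ctrl mean), with 1 point per library: circles are Ctrl 1 and Ctrl 2 and squares are KO 1 and KO 2. At Zfp788 and Zfp954 both squares lie below both circles, and at Zfp768 both lie above. Both squares also lie below both circles at Zfp708, Zfp809, Zfp830, Zfp831 and Zfp959. This was so at 18.3% of all genes with a promoter peak.

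Pol II at these promoters was then compared gene by gene between KO, with both Setd2 alleles floxed, and Ctrl. After adjustment, DESeq2 separated KO from Ctrl at 0 of 73 members (adjusted p-value under 0.05), where 0.0397% of all 12592 genes with a promoter peak did. At an unadjusted p-value under 0.05, 2 members were lower in KO and 1 was higher, against 1.1% and 0.818% of all genes. In these pooled nuclei, fewer cells with Pol II at a gene and less Pol II per cell cannot be told apart. The edgeR quasi-likelihood test also gave 0 at an adjusted p-value under 0.05, where 0.0% of all genes passed. Before adjustment it put 5 members lower and 1 higher in KO, against 1.95% and 1.51% of all genes. With all peaks of a gene summed, 0 of 74 passed adjustment by either tool, where DESeq2 called 0.096% of all genes, and 2 members were lower and 1 was higher before adjustment (1.49% and 1.09% of all genes). By edgeR, 5 members were lower and 1 was higher before adjustment (2.53% and 1.92% of all genes), and 0.0% of all genes passed it.

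Small differences mostly pointed downwards. At promoters, log2 fold changes in KO relative to Ctrl had a median of -0.15 over the 73 members, against -0.08 over 172 Zfp1 to Zfp699 genes and -0.03 over all genes, and they ranged from -1.16 to 0.76. They were below 0 at 55 of 73 members (75.3%), against 64.0% of Zfp1 to Zfp699 genes and 55.8% of all genes. Both KO libraries were lower than both Ctrl libraries at 30 members (41.1%), against 23.3% of Zfp1 to Zfp699 genes and 18.3% of all genes. They were above both at 6 members (8.22%), against 9.3% and 14.1% in the same order. Between libraries of the same number, the median was -0.13 for KO 1 over Ctrl 1 and -0.18 for KO 2 over Ctrl 2. Summed over all members, normalized promoter reads came to 12926 and 12298 in the Ctrl libraries and to 11763 and 11031 in the KO libraries, so that the genotypes did not overlap. The median log2 fold change of the members depended on single libraries, at -0.22 without KO 1 and -0.10 without KO 2. Over all genes it moved too, to -0.07 and 0.0 in the same order. The genes are not independent, since 5 peaks belong to 2 members each, and these values describe the members with no test of the family as a whole.

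**Figure D3:**
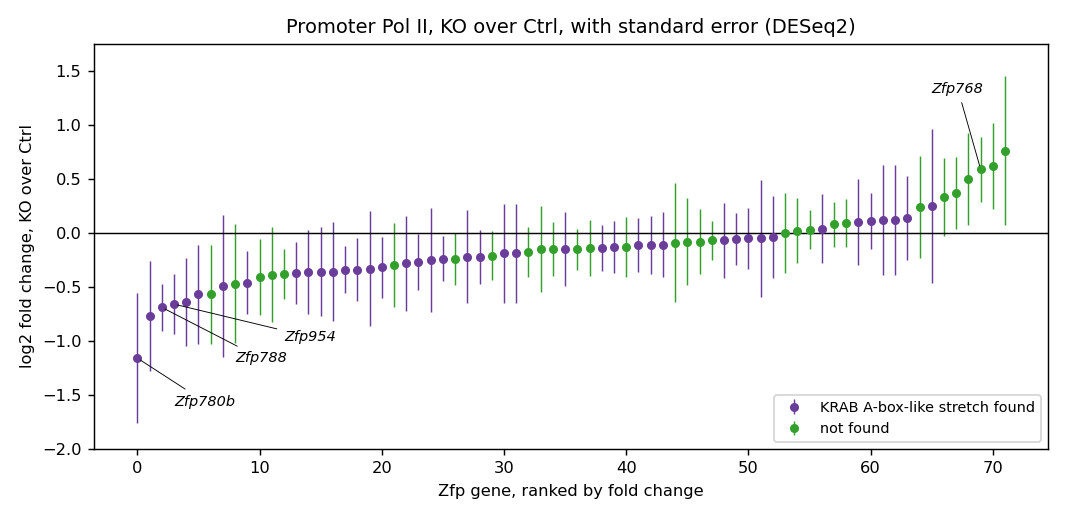
Log2 fold change of promoter Pol II in KO over Ctrl (y axis), with the standard error as a bar, for 72 of the 73 members with a promoter peak, ranked by value (x axis); Zfp729b is left out. Purple points are genes with the KRAB-like stretch and green points are those in which it was not found. Of the 42 purple points 35 lie below 0, and most bars of either colour cross it.

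Genes with and without the KRAB-like stretch differed in where their values centred. Over the 42 with the stretch the median was -0.22, with 35 below 0 and both KO libraries below both Ctrl libraries at 22. Over the 31 without it the median was -0.09, with 20 below 0 (64.5%) and 8 with both KO libraries lower (25.8%), nearer to the shares of all genes. By chromosome, the median was -0.28 over 4 members with a promoter peak on chromosome 9 and -0.25 over 15 on chromosome 17. On chromosome 17, Zfp942 shares its peak with Zfp943, and Zfp758 with Zfp944. The median was -0.15 over 9 members on chromosome 8, -0.13 over 15 on chromosome 7 and -0.11 over 11 on chromosome 13. The remaining chromosomes held fewer such members each, apart from chromosome 6, where 6 members had a median of 0.35 with 5 above 0. The 6 genes were Zfp746, Zfp775, Zfp777, Zfp786, Zfp800 and Zfp956, in none of which the stretch was found, and none of them had an unadjusted p-value under 0.05. Of these differences between classes none was tested.

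**Figure D4:**
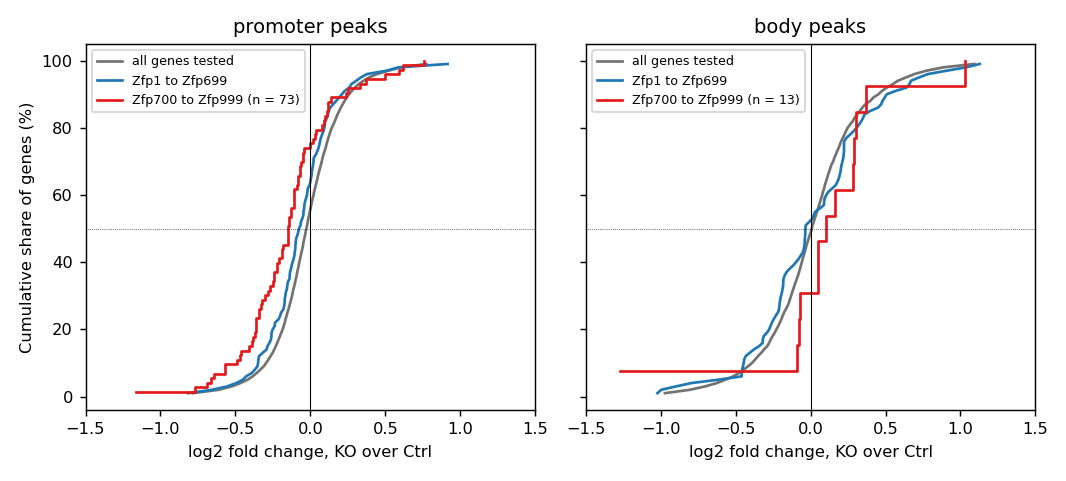
Cumulative share of genes (y axis, percent) against the log2 fold change in KO over Ctrl (x axis) for promoter peaks (left) and body peaks (right); red is Zfp700 to Zfp999, blue Zfp1 to Zfp699 and grey all genes tested. At promoters the red line crosses 50% at -0.15, left of the grey line at -0.03, and in bodies it crosses at 0.10, with 13 genes, right of the grey line at 0.01.

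Zfp788 had the lowest p-value of the family. For this gene, and for Zfp954 and Zfp768 over their summed peaks, p-values are from the fit of all peaks of a gene. Its only peak, chr7:41632743-41633910, covers the first exon and the upstream sequence shown above, and held 507, 583, 286 and 395 normalized reads in Ctrl 1, Ctrl 2, KO 1 and KO 2. Each KO library was thus lower than each Ctrl library. DESeq2 put the log2 fold change at -0.69 ± 0.21 (SE) and its p-value at 0.00125 before and 0.517 after adjustment over all genes, and the fold change stayed between -0.93 and -0.46 when 1 library was left out.

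Zfp954 was lower in KO at both of its peaks, without passing adjustment. The promoter peak, chr7:7120746-7121573, held 181, 201, 116 and 126 normalized reads in Ctrl 1, Ctrl 2, KO 1 and KO 2, a log2 fold change of -0.66 ± 0.28 (SE). The peak in the last exon, chr7:7115052-7115374, which contains the finger shown above, held 28.8, 41.3, 12.5 and 17.0, a log2 fold change of -1.27 ± 0.67 (SE). The genotypes did not overlap at either peak. For both peaks summed it was -0.74 ± 0.26 (SE), and the p-value by DESeq2 was 0.00536 before and 1.0 after adjustment.

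Zfp768 was the only member higher in KO at an unadjusted p-value under 0.05. The gene is short (chr7:127342795-127345589), so that its last exon, with the fingers, lies in the promoter window. Summed over its 2 peaks, it held 103, 103, 153 and 158 normalized reads in Ctrl 1, Ctrl 2, KO 1 and KO 2, with both KO libraries above both Ctrl libraries. This amounted to a log2 fold change of 0.59 ± 0.30 (SE), for which DESeq2 gave a p-value of 0.0466 before and 1.0 after adjustment. The lowest log2 fold change among promoter sums belonged to Zfp780b, chosen here after its values were seen: its peak at chr7:27979175-27979463 held 41.0, 38.6, 19.6 and 15.3 normalized reads in the same order. Its log2 fold change of -1.16 ± 0.60 (SE) had a DESeq2 p-value of 0.0517 before adjustment in the fit of promoter peaks.

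Members with a described function were examined whatever their values. Zfp746, known as PARIS and a repressor of Ppargc1a, had the most promoter reads of these together with Zfp703, a transcriptional co-repressor of the NET family. Their log2 fold changes over all peaks were 0.05 ± 0.17 and 0.08 ± 0.20 (SE). Zfp830, needed in the early embryo, had -0.24 ± 0.23, and its peak is shared with Cct6b. Zfp827, which binds telomeres with the NuRD complex, had -0.0018 ± 0.37. The retroelement-binding proteins gave -0.24 ± 0.20 for Zfp809, -0.39 ± 0.44 for Zfp708 and -0.36 ± 0.41 for Zfp932. At Zfp809, both KO libraries, with 330 and 378 normalized reads, lay below both Ctrl libraries, with 410 and 423, whereas those of Zfp932 overlapped, and its log2 fold change was 0.065 without KO 1 and -0.84 without KO 2. Zfp750, a regulator of epidermal differentiation, and Zfp819 had no peak. For each of these genes the 95% interval of the log2 fold change included 0.

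In gene bodies, where H3K36me3 lies, 0 of 13 members passed an adjusted p-value of 0.05 in KO against Ctrl by DESeq2 or edgeR, and 0 had an unadjusted p-value under 0.05 by either tool. Of all 5806 genes with a body peak, 0.0689% passed adjustment by DESeq2, and 1.53% were lower and 1.81% higher before it, while edgeR called 0.362% after adjustment and 2.74% lower and 3.13% higher before it. The median log2 fold change of the members was 0.10, against -0.03 for 52 Zfp1 to Zfp699 genes and 0.01 for all genes, with 4 of 13 below 0 (30.8%, against 48.8% of all genes). Both KO libraries lay above both Ctrl libraries at 4 members, Zfp710, Zfp740, Zfp771 and Zfp935 (30.8%, where 18.0% of all genes did). At Zfp710 and Zfp740, KO 1 was almost level with Ctrl 2. They lay below both at 1, Zfp954 (7.69%, where 16.7% did). The member median was -0.042 without KO 2 and 0.24 without Ctrl 2, so that its sign rested on 1 library. Over all genes the median was -0.04 and 0.05 in the same order. Some body peaks are shared with other genes, and that of Zfp935 also belongs to Gm49359. With shared peaks left out, 9 members had a body peak, with a median of 0.10 and 2 below 0. With start sites of any gene counted for the promoter class, 10 members had one, with a median of 0.11.

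The bodies with the most peaks were those of Zfp831, with 11 of the 35 body peaks, and of Zfp710, with 6. All 11 in Zfp831 were intronic, and their sum was 607, 751, 658 and 625 normalized reads in Ctrl 1, Ctrl 2, KO 1 and KO 2, a log2 fold change of -0.08 ± 0.18 (SE). The Ctrl libraries lay on both sides of the KO libraries. In Zfp710 the sum was 435, 491, 491 and 499, a log2 fold change of 0.10 ± 0.19 (SE). Zfp771 held 293, 271, 359 and 337, with both KO libraries above both Ctrl libraries and a log2 fold change of 0.30 ± 0.21 (SE, DESeq2 p-value 0.159 before adjustment). Zfp865 and Zfp871 had 4 body peaks each and log2 fold changes of -0.07 ± 0.26 and 0.05 ± 0.23 (SE). All 4 of Zfp865 are shared with other genes, Ccdc106 among them.

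The share of member reads that lay in body peaks was 13.5% and 15.5% in Ctrl and 15.7% and 17.4% in KO. Both KO libraries were higher, KO 1 only just above Ctrl 2, and the libraries of a genotype differed from one another by about as much. For Zfp1 to Zfp699 genes the share was 9.58% and 11.4% in Ctrl and 10.8% and 12.3% in KO, also higher in KO within each library number. The same share over all genes was 35.0% and 36.3% in Ctrl and 35.2% and 36.5% in KO. Body reads of the members overlapped, at 2012 and 2250 normalized reads in Ctrl and 2197 and 2332 in KO. Their promoter reads, given above, did not.

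Few of the member peaks touched the DNA that encodes the fingers. Only uniquely mapped reads were kept, and other coding DNA was not counted for comparison. Of the 131 pairs of a member and a peak, 10 touched finger-coding DNA, in 10 genes. In 5 of them, Zfp746, Zfp771, Zfp871, Zfp954 and Zfp956, the peak was a body peak in the last exon. In the other 5, Zfp740, Zfp747, Zfp768, Zfp784 and Zfp865, the fingers lay within 3 kb of a start site and the peak counted as promoter. The KRAB-like stretch was found in 3 of the 10 proteins. The peak in Zfp871, chr17:32774519-32775431, covered 10 of its 15 fingers, and that in Zfp771, chr7:127253548-127254889, all 8. That in Zfp954, chr7:7115052-7115374, covered 1 of its 8 fingers, and only 63 of its 323 bases were finger-coding. Reads in it thus need not lie over fingers.

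Taking these peaks singly, 0 of 10 had an unadjusted DESeq2 p-value under 0.05, where 0.862% of all peaks were higher and 0.664% lower, and 0.0% of all peaks passed adjustment. By edgeR 0 of 10 did so either, before or after adjustment, where 1.93% of all peaks were higher and 1.7% lower before adjustment and 0.0477% passed it. The log2 fold change was above 0 at 6 and below 0 at 4, where 51.1% of all peaks were below 0, with a median of 0.14 and a range from -1.27 to 0.49. At Zfp771 the peak held 262, 248, 325 and 315 normalized reads in Ctrl 1, Ctrl 2, KO 1 and KO 2, with both KO libraries higher and a log2 fold change of 0.33 ± 0.24 (SE). At Zfp871 it held 48.9, 86.8, 71.3 and 98.8, with overlap and a log2 fold change of 0.33 ± 0.42 (SE). The finger-coding peak of Zfp768, chr7:127343409-127344142, held 84.8, 89.6, 121 and 124, with both KO libraries higher. That of Zfp865, chr7:5031677-5031994, held 31.6, 42.7, 18.4 and 17.0, with both lower, and it is shared with other genes. Both KO libraries lay above both Ctrl libraries at 2 of the 10 peaks and below both at 3, where 16.2% and 16.1% of all peaks did.

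**Figure D5:**
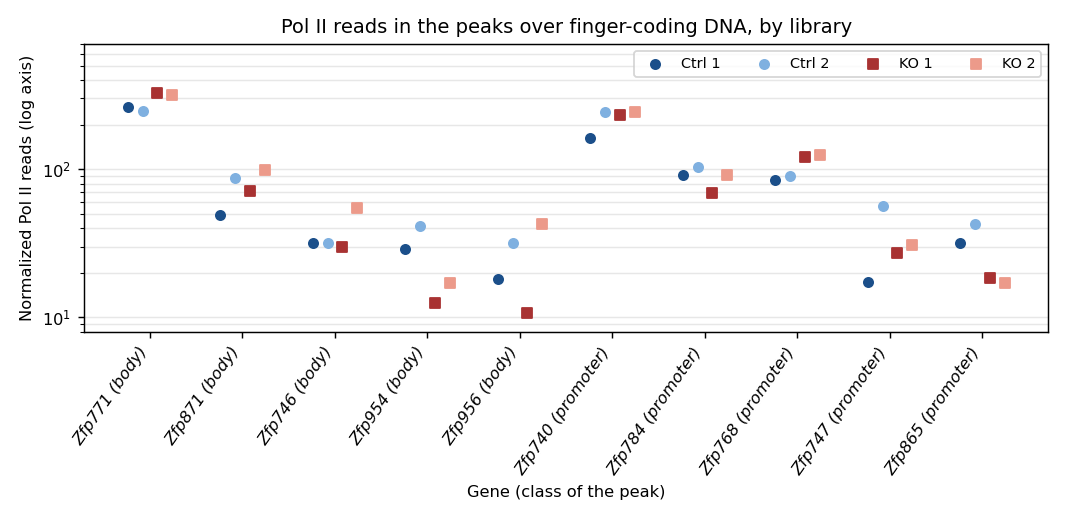
Normalized Pol II reads (y axis, log scale) in the 10 peaks that touch finger-coding DNA (x axis, with the class of the peak), with 1 point per library: circles are Ctrl and squares are KO. Both squares lie above both circles at Zfp771 and Zfp768 and below them at Zfp954, Zfp784 and Zfp865, with KO 2 almost level with Ctrl 1 at Zfp784.

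Zfp729b stood apart for its libraries. Its peak, chr13:67609252-67609900, held 140 reads in Ctrl 1 and 157 in KO 1 but 0 in Ctrl 2 and 0 in KO 2, where 3 reads, the limit that a count of 0 allows, would be 4.13 and 5.11 normalized reads. It was 1 of 3 peaks in the series with no read in both libraries numbered 2, and no peak was empty in both libraries numbered 1. The libraries numbered 2 were the shallower in both genotypes. Only 2 of the 3 peaks, this one among them, had at least 50 reads in both libraries numbered 1. At Zfp729b the difference therefore ran between library numbers and not between genotypes, and the fitted log2 fold change of -0.11 had an SE of 4.57. The 300 bases around the start of the gene were 68.7% identical to those of its neighbour Zfp729a. Among the other 72 members with a promoter peak, both libraries numbered 1 lay above both numbered 2 at 21 (29.2%, against 33.4% of all genes). By chromosome this was the case at 9 of 15 promoters on chromosome 17, 1 of 10 on chromosome 13 and 0 of 4 on chromosome 9.

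The co-repressor genes through which KRAB zinc finger proteins act were given as a list of 29 genes, all with a peak. By DESeq2 and by edgeR, 0 passed an adjusted p-value of 0.05 and 0 had an unadjusted p-value under 0.05, in either direction. Their log2 fold changes over all peaks had a median of 0.07 and ranged from -0.29 to 1.09. The highest was that of Dnmt3b, with an SE of 0.71. It held only 15.8, 11.0, 22.0 and 37.5 normalized reads in Ctrl 1, Ctrl 2, KO 1 and KO 2. Over all peaks, both KO libraries lay above both Ctrl libraries at 9 genes and below both at 2, where 15.2% and 19.0% of all genes did. Over promoter peaks these counts were 7 and 2, where 14.1% and 18.3% of all genes did. Trim28, the scaffold that KRAB domains bind, held 742, 853, 857 and 855 normalized reads in Ctrl 1, Ctrl 2, KO 1 and KO 2, a log2 fold change of 0.11 ± 0.17 (SE). Both KO libraries lay above both Ctrl libraries, but above Ctrl 2 by less than the Ctrl libraries differed from one another.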

How the data were processed

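Pol II CUT&Tag libraries of Ctrl (n = 2) and KO (n = 2) Treg cells were compared. An IgG library of the series was not analysed here. The authors mapped paired-end reads to mm10 with Bowtie2, kept uniquely mapped reads, called peaks with MACS2 against IgG and merged them with bedtools; the deposited table holds raw counts of reads per merged peak, and versions are not given in the sources used here. Peaks were selected on the libraries compared.

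Peaks were assigned to genes with GENCODE vM21 (GRCm38), to protein-coding genes first and otherwise to non-coding genes, giving 13542 genes. CUT&Tag reads carry no strand, so that a shared peak cannot be credited to 1 gene. Counts, singly or summed per gene over all, promoter or body peaks, were fitted across the whole table with DESeq2 1.42.0 in R 4.3.3 (Wald test), the tool of the study, with median-of-ratios size factors (1.39, 0.726, 1.68 and 0.587 for Ctrl 1, Ctrl 2, KO 1 and KO 2), genotype as the only term and two-sided p-values adjusted by Benjamini-Hochberg over all features. Normalized reads are counts over size factors, values are log2 fold changes with SE, and scripts were tested on simulated data. Counting error only is covered by the limit for a count of 0. The edgeR 4.0.16 quasi-likelihood test, other scalings and filters, promoter windows of 1 kb, and leaving out each library were alternatives.

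Fingers were matched as C2H2 patterns and the KRAB-like stretch as a fixed pattern in the longest coding sequence. Near-identical copies of last exons were found with BLAST 2.17.0. The members, the lists and the class definitions were chosen with earlier results of these data known. Genes were named if they had an adjusted p-value under 0.05, were among up to 10 per direction with an unadjusted p-value under 0.05, were among the 5 with most promoter reads per kb or the 5 with most body peaks, or have a described function.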

Additional observations from a re-analysis of the deposited data

How the results depend on the processing

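No member passed an adjusted p-value under 0.05 in any of the alternatives that gave an adjusted p-value (edgeR, total-count and TMM scaling, a mean of at least 10 counts, shared peaks left out, other promoter definitions, 1 library left out). The lowest adjusted p-value of a member in these fits of genes was 0.510, and edgeR gave 0.192 as the lowest for a single peak of a member. With the replicate number as a block, DESeq2 gave an adjusted p-value to 0 of 74 members over all peaks, 4 of 73 at promoters, 2 of 13 in bodies and 37 of 126 single peaks, with 2 members lower and 0 higher before adjustment over all peaks; the lowest adjusted p-value under the block, for the single peak of Zfp788, was 0.0963, against 1.0 for that peak without the block; medians were -0.14 over all peaks, -0.14 at promoters and 0.10 in bodies, and the correlation of deviations between same-numbered libraries was 0.233 over 2 pairs, which does not show that the numbers pair the samples. Leaving out 1 library moved the median from -0.18 to -0.10 over all peaks, from -0.22 to -0.10 at promoters and from -0.042 to 0.24 in bodies, with the negative value without KO 2; an arm of 1 library was assumed to vary like the other. The direction of some named members turned, most of them with values near 0: Zfp827 was 0.03 under total-count and 0.0023 under TMM scaling, and without 1 library it ranged from -0.13 to 0.14, Zfp963 from -0.38 to 0.05, Zfp983 from -0.23 to 0.086, Zfp831 from -0.24 to 0.057, Zfp871 from -0.0065 to 0.10, Zfp703 from -0.11 to 0.30 and Zfp932 from -0.84 to 0.065. The cause was not tested.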
